A study of Mus musculus with 2 samples.

Results

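The Fc receptors of mouse myeloid cells and the kinase that carries their signal were followed in M-MDSCs, the monocytic subset of myeloid-derived suppressor cells, taken from 4T1 tumours of mice on 2 diets. The genes were Fcgr1, Fcgr2b, Fcgr3, Fcgr4, Fcer1g, Fcgrt and Syk. Their probes were all non-control probes of the arrays that carry a RefSeq transcript of 1 of these genes, and each gene had 1 such probe, so the set holds 7 of 20653 named genes and 7 of 39413 probes.

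Fc receptors bind the constant part of antibodies and couple antibody-coated targets to phagocytosis, release of mediators and cytokine production. Mouse FcγRI, FcγRIII and FcγRIV, encoded by Fcgr1, Fcgr3 and Fcgr4, are activating receptors that signal through the common γ chain encoded by Fcer1g, whose ITAM is phosphorylated by Src family kinases and then recruits Syk. FcγRIIB, encoded by Fcgr2b, carries an ITIM and restrains the same pathway through phosphatases, while FcRn, encoded by Fcgrt, is a receptor related to MHC class I that protects IgG from degradation and does not signal through Syk.

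All mice were female BABL/c mice (the spelling of the labels) that had received 1000000 cells of the mammary carcinoma line 4T1 under the skin after 1 day without food. The NSD group then ate chow with 0.4% NaCl and drank tap water, and the HSD group ate chow with 4% NaCl and drank water with 1% NaCl, each for 16 days. Tumour M-MDSCs were isolated with a bead kit, equal numbers were pooled within a diet, and RNA of each pool was hybridised to 1 single-colour array, so the spread between mice is not measured and no difference given here has a replicate check. The question the design addresses is how the diet altered gene expression of these cells.

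Signals are intensities after the scanner software's background subtraction, and ± gives the software's own error of the signal. Log2 fold changes are HSD minus NSD, after the 75th percentile of each array had been subtracted, which was 252 intensity units for NSD and 233 for HSD. Genes were counted as higher or lower from 1.5-fold upward. With 1 array per diet, the precision of the fold changes is limited by that number.

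The labelled cell type was checked against its markers. Itgam, which encodes CD11b, had a signal of 31564 for NSD and 31043 for HSD, and the brightest probe of Ly6c1 had 51811 and 48478. Ccr2, a further monocyte marker of this check, had 259 for NSD and 139 for HSD. It was lower in the HSD group, with a log2 fold change of −0.78, or −0.69 after normexp background correction. No probe was matched to Ly6c2 or to Ly6g, the marker of the granulocytic subset, so the monocytic label could not be checked by these 2 genes. Neutrophil granule and alarmin genes were bright on both arrays, among them Camp with 61817 and 59919.5 and S100a8 with 57914 and 56478. None of the 9 usable neutrophil markers passed 1.5-fold. Whether probes this bright respond in full to a change in RNA was not tested.

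On both arrays all 7 probes stood well above background, and none was flagged or saturated. None was at least 1.5-fold higher in the HSD group, against 10.2% of the 29628 usable probes of the arrays. Fcgr1 and Fcgrt were at least 1.5-fold lower, 2 of 7, against 8.91% of all usable probes. Counted by genes, the background was 9.86% higher and 10.3% lower of 16312 genes. The median log2 fold change of the 7 genes was 0.21 and that of all genes 0.05, with 5 members above 0 and 2 below.

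**Figure D1:**
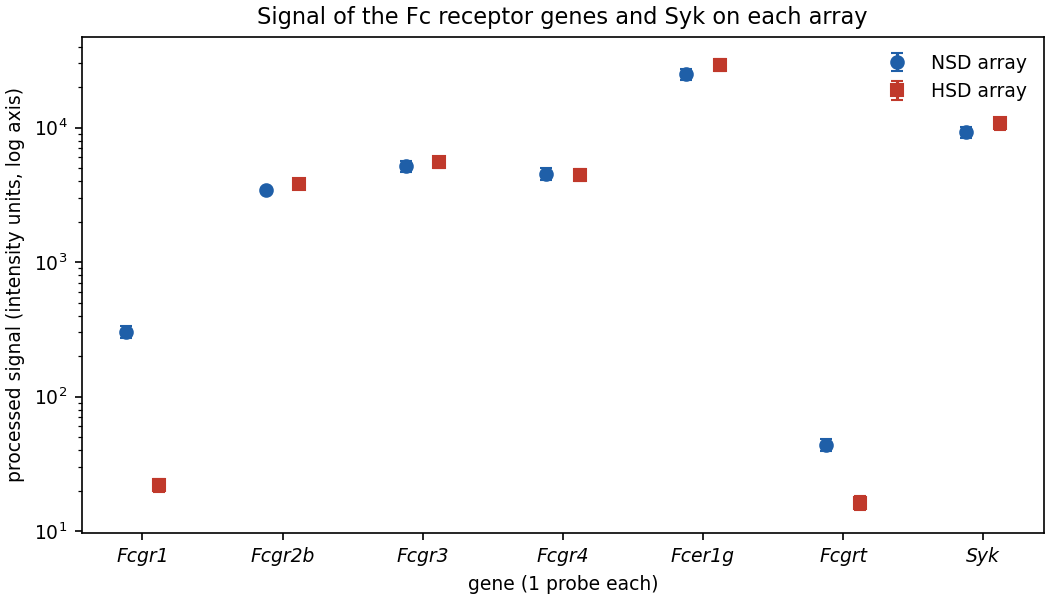
Processed signal (intensity units, log axis) of the probe of each gene on the NSD array (blue circles) and the HSD array (red squares), with bars for the error given by the scanner software, which are smaller than the symbol where they cannot be seen. Fcgr1 and Fcgrt lie lower on the HSD array, at 21.9 and 16.3 intensity units, and the symbols of the other 5 genes lie at nearly the same height on both arrays. Signals of different probes are not comparable with each other.

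Of the activating receptors, Fcgr1 stood apart. FcγRI is the high-affinity IgG receptor, a protein widely used to mark monocyte-derived macrophages. Its probe, on a single spot for transcript NM_010186, had a processed signal of 305 ± 30.5 for NSD and 21.9 ± 2.37 for HSD. Before background subtraction the median brightness of the spot was 330.0 over a local background of 16.0 on the NSD array and 41.5 over 17.0 on the HSD array. The spot was thus still above its surroundings in the HSD group, and much dimmer than in the NSD group. The log2 fold change was −3.68 with an error of 0.21 from the software's errors, a signal 12.9-fold lower in the HSD group. Only 9 of the 15209 genes measured on both arrays had a lower log2 fold change, which is 0.0592% of them. Another background correction (normexp) adds an offset of 50 to every spot, which shrinks the fold changes of dim probes most. With it the log2 fold change was −2.10, or 4.28-fold lower. Among probes printed in several spots with signals within 2-fold of that of Fcgr1, the largest log2 difference between spots of 1 probe was 0.67 over 61 probes of the NSD array and 1.42 over 67 probes of the HSD array, both smaller than the change of Fcgr1.

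Fcgr3 encodes the low-affinity activating receptor FcγRIII (CD16). Its signal, for transcript NM_010188, was 5174 ± 517 for NSD and 5515 ± 552 for HSD. The software's error ranges overlapped, and the log2 fold change was 0.21 with an error of 0.20. Fcgr4 encodes FcγRIV, which binds IgG2a and IgG2b. Its signal, for transcript NM_144559, was 4556 ± 456 for NSD and 4462 ± 446 for HSD. The signal itself was slightly lower in the HSD group, and the log2 fold change after scaling was 0.08 with an error of 0.20. The sign turned to −0.02 under cyclic loess scaling, so no direction is given for Fcgr4.

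The only inhibitory receptor of the family, Fcgr2b, was measured most often. Its probe, for transcript NM_001077189, was printed in 10 spots on each array and had a combined signal of 3454 ± 109 for NSD and 3784 ± 119.7 for HSD. The spots had a lowest, median and highest signal of 3121, 3549.6 and 3677 on the NSD array and of 3476, 3803 and 4209 on the HSD array. The signals of the spots overlapped between the arrays. After scaling they narrowly did not, with 3.87 as the highest log2 value for NSD and 3.90 as the lowest for HSD. This narrow separation depends on the scaling, and the spots were not compared under the alternatives. Scaling by probes well above background on both arrays lowered the log2 fold change of Fcgr2b from 0.25 to 0.21. Quantile normalization lowered it to 0.15. The SD between spots was 0.08 on the log2 scale on each array, a spread of the measurement and not of the mice. The log2 fold change was 0.25 with an error of 0.06, a difference of 1.19-fold. Over the alternatives it lay between 0.15 (quantile normalization) and 0.27 (normexp).

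Fcer1g, the common γ chain on which surface expression and signalling of FcγRI, FcγRIII and FcγRIV depend, had, for transcript NM_010185, a signal of 24900.5 ± 2490.05 for NSD and 29246 ± 2925 for HSD. It was somewhat higher in the HSD group, with a log2 fold change of 0.35 and an error of 0.20, and did not pass 1.5-fold. Syk, the tandem SH2 kinase recruited to phosphorylated ITAMs, had, for transcript NM_011518, a signal of 9252 ± 925 for NSD and 10741 ± 1074 for HSD. It too was somewhat higher in the HSD group, with a log2 fold change of 0.33 and an error of 0.20. For both genes the software's error ranges of the 2 signals overlapped, as for Fcgr3. Of the genes measured on both arrays, 78.98% had a lower log2 fold change than Fcer1g and 77.85% a lower one than Syk. Under cyclic loess the log2 fold changes were 0.21 for both genes.

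The probe of Fcgrt was close to background in the HSD group. Its signal, for transcript NM_010189, was 43.9 ± 4.52 for NSD and 16.3 ± 1.95 for HSD. The spot median was 61.0 over a local background of 18.0 on the NSD array and 31.5 over 19.0 on the HSD array. The HSD signal was the lower one, with a log2 fold change of −1.32 and an error of 0.23, or 2.50-fold, and 287 genes (1.89%) had a lower log2 fold change. At this signal level single spots were less steady than at that of Fcgr1 in the NSD group. Spots of 1 probe within 2-fold of the signal of Fcgrt differed by up to 1.42 on the log2 scale over 69 probes of the NSD array and by up to 2.30 over 61 probes of the HSD array, more than the change of Fcgrt. With the normexp correction its log2 fold change was −0.43, or 1.34-fold lower, and no longer passed 1.5-fold. The offset of 50 in that correction exceeds both signals of Fcgrt, so a smaller fold change follows from the setting itself.

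Within the arrays the receptors therefore changed unequally. Relative to the log2 fold change of Fcgr2b, that of Fcgr1 was lower by 3.93 (error 0.22), a 15.2-fold shift of the ratio of both signals between the diets. After normexp the difference was −2.37, or 5.17-fold. For Fcgrt the difference from Fcgr2b was −1.57 with an error of 0.24, and after normexp −0.70. The differences of the other 4 genes from Fcgr2b were smaller than their errors, at −0.04 for Fcgr3, −0.16 for Fcgr4, 0.10 for Fcer1g and 0.08 for Syk, each with an error of 0.21. A change shared by all probes of an array cancels in these differences. In pooled bulk RNA, fewer cells that express a gene and less RNA per cell cannot be told apart.

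**Figure D2:**
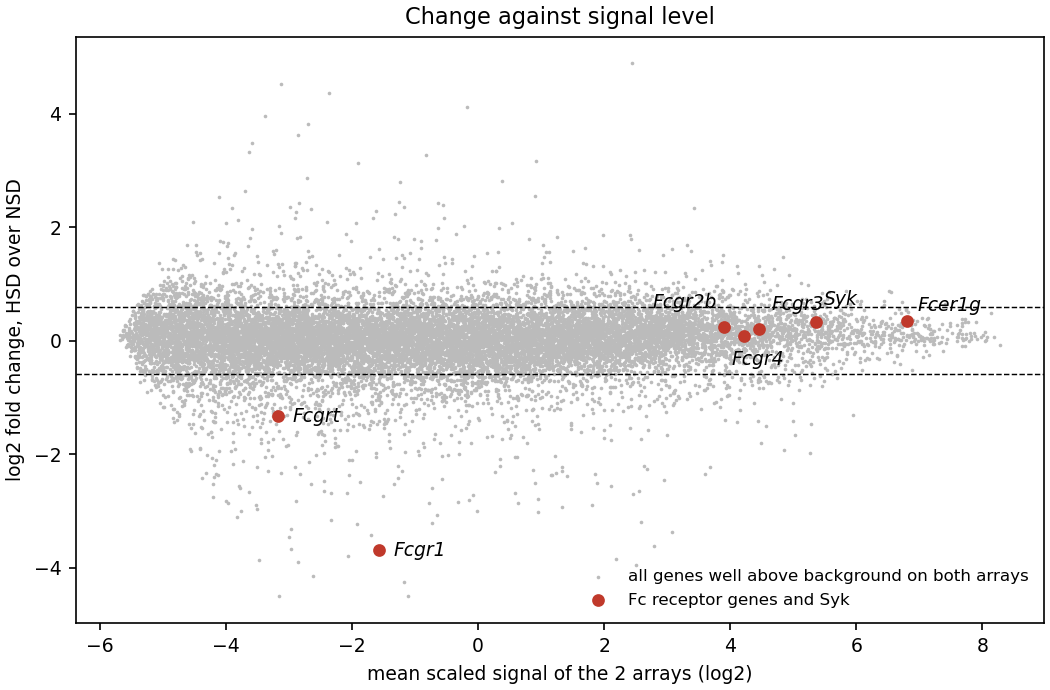
Log2 fold change (HSD over NSD) against the mean scaled log2 signal of both arrays for the 15209 genes well above background on both (grey) and the Fc receptor genes and Syk (red), with dashed lines at 1.5-fold. Fcgr1, at −3.68, lies among the lowest genes at its signal level and Fcgrt at −1.32, while Fcgr2b, Fcgr3, Fcgr4, Fcer1g and Syk lie between the dashed lines at the bright end.

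The loci of 4 genes lie close together, and Fcgr1 does not share their place. In the RefSeq gene order of GRCm38.p6, Fcgr2b, Fcgr4 and Fcgr3 follow each other on chromosome 1, with Fcer1g a few genes further along, while Fcgr1 is on chromosome 3, Fcgrt on chromosome 7 and Syk on chromosome 13. The log2 fold changes of the 4 chromosome 1 genes lay between 0.08 and 0.35. Of 17 neighbouring coding genes of that stretch, 14 had a usable probe, with a median of 0.07 and a range from −1.43 to 0.71. Among them 3 passed 1.5-fold upward and 3 downward, beside 9.86% and 10.3% of all genes.

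RefSeq promoter windows of GRCm38.p6 were matched for 7 of 7 genes, and the 130 bases before the annotated start are shown for 4 of them, to set the receptor that was much lower, Fcgr1, beside the other activating receptors Fcgr3 and Fcgr4 and the other lower gene, Fcgrt. They are written 5′ to 3′ on the strand of the gene, and capitals mark a match to the interferon-γ activated site TTCNNNGAA or, on either strand, to the PU.1 box GAGGAA. PU.1 is a transcription factor that myeloid cells need.
Fcgr1, chr3:96293970-96294099, minus strand: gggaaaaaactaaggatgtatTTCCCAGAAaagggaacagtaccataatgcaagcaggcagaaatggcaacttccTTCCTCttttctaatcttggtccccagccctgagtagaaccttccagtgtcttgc
Fcgr3, chr1:171059404-171059533, minus strand: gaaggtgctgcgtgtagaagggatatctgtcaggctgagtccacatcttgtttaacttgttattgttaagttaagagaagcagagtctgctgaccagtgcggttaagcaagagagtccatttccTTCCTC
Fcgr4, chr1:171018796-171018925, plus strand: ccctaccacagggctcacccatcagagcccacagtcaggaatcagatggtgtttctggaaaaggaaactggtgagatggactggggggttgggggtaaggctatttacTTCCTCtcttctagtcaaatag
Fcgrt, chr7:45103823-45103952, minus strand: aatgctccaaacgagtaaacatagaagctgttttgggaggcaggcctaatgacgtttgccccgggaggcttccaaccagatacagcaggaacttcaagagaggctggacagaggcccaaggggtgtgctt

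In the full windows of 250 bases before the start, Fcgr1 held the activated site, as TTCCCAGAA beginning 109 bases before the start, and a PU.1 box 55 bases before it. Of all 32851 windows of this length in the table, 7.02% held the first motif and 23.3% the second. PU.1 boxes stood 6 bases before the start of Fcgr3 and 22 bases before that of Fcgr4, and 9 bases before the second annotated start of Syk. The activated site was matched in no window of the other 6 genes, and the windows of Fcgr2b, Fcer1g and Fcgrt held neither set of letters. These are matches of letters and not measured binding sites.

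Other receptors for antibodies were set beside these genes. Of 12 listed genes for further Fc and immunoglobulin receptors, 11 had a usable probe. Of these, 2 were at least 1.5-fold higher and 1 lower, beside 9.86% and 10.3% of all genes. The median log2 fold change of the 11 was 0.32. Trim21, which encodes a cytosolic antibody receptor with ubiquitin ligase activity, had a signal of 343 for NSD and 77.7 for HSD. It was the only gene of the list that was at least 1.5-fold lower, with a log2 fold change of −2.03, or −1.44 after normexp. Fcmr, the IgM receptor gene, was higher in the HSD group, with 2774 and 4619.6 intensity units and a log2 fold change of 0.85. Fcrlb, which encodes an Fc receptor-like protein, had 36.2 and 52.4 intensity units and a log2 fold change of 0.65, which was 0.30 with the normexp correction. Fcamr was on neither array well above background.

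The Src family kinases that phosphorylate the ITAM of the γ chain showed no member past 1.5-fold in either direction among 6 genes, with a median log2 fold change of 0.25. Lyn had a signal of 521 for NSD and 448 for HSD, and its log2 fold change was −0.10.

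Downstream of Syk, 5 of 24 adaptor and effector genes were at least 1.5-fold higher and 2 lower, beside 9.86% and 10.3% of all genes. Their median was 0.34, with 18 above 0. Btk, a Tec family kinase, had a signal of 1088 for NSD and of 1774 for HSD, with a log2 fold change of 0.82. Prkcd, which encodes protein kinase Cδ, had 3062 and 4926 and a log2 fold change of 0.80. Both were brighter in the HSD group. Malt1 and Bcl10, partners in the CARD9 complex that links Syk to NF-κB, had log2 fold changes of 0.70 and 0.69. The fifth gene was Pik3cd, a PI3-kinase subunit, at 0.63, which was named after its value had been seen. With the median over its probes Pik3cd was at 0.40. Under cyclic loess, 3 genes of this list were at least 1.5-fold higher, without Bcl10 and Pik3cd. Lat2, an adaptor of the same pathway, was lower, with signals of 625 and 366 and a log2 fold change of −0.66. Plcg1 was dim, with 22.5 and 13.5 intensity units, and its log2 fold change was −0.62, or −0.07 after normexp, and the value of Lat2 was −0.53 after normexp, so neither passed 1.5-fold there. Plcg2, the phospholipase Cγ of myeloid cells, had 8938 and 9325 and a log2 fold change of 0.18.

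Of 12 genes for phosphatases, ligases and adaptors that restrain the pathway, 1 was at least 1.5-fold higher and 1 lower. This stands beside 9.86% and 10.3% of all genes. The median of the 12 was 0.13. Inpp5d encodes SHIP1, the lipid phosphatase that FcγRIIB recruits, and had a signal of 5445 for NSD and of 5587 for HSD, with a log2 fold change of 0.15. Ptpn6, which encodes SHP-1, had 8509 and 10729 and a log2 fold change of 0.45. Cbl, a ubiquitin ligase that acts on Syk, was higher, at 1158 and 1764 with a log2 fold change of 0.72, and Dok2, an adaptor that restrains Ras, was lower, at 1739 and 741 with a log2 fold change of −1.12.

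Syk also serves other receptors with ITAM adaptors, and 11 of 12 such genes had a probe and were usable. Of these, 2 were at least 1.5-fold higher and 2 lower, beside 9.86% and 10.3% of all genes. The median log2 fold change of the 11 was 0.09. Tyrobp, which encodes the adaptor DAP12, had a signal of 31358 for NSD and 30768 for HSD. Its log2 fold change of 0.09 turned to −0.05 under cyclic loess and to −0.01 in the deposited log2 values, so no direction is given. Trem2, a receptor of lipid-handling macrophages that pairs with DAP12, was the lowest of the list, with signals of 3348 and 669 and a log2 fold change of −2.21. Clec4n, which encodes the fungal receptor Dectin-2 that pairs with the γ chain, was also lower, with 2532 and 1113 and a log2 fold change of −1.07. Pilrb1 was higher, at 0.85, as was Clec4e, which encodes Mincle, at 0.71, or 0.44 with the normexp correction. Of 11 usable genes for inhibitory receptors with ITIM, none passed 1.5-fold in either direction, and the median was −0.06. When the 75th percentile was taken over probes well above background on both arrays, 1 gene of this list was lower, Cd300a at −0.59, which was named after its value had been seen.

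Over these 6 lists together, 10 of 75 usable genes were at least 1.5-fold higher and 6 lower, with a median of 0.15, beside 9.86% and 10.3% of all genes. No gene of the lists was higher from 2-fold upward.

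**Figure D3:**
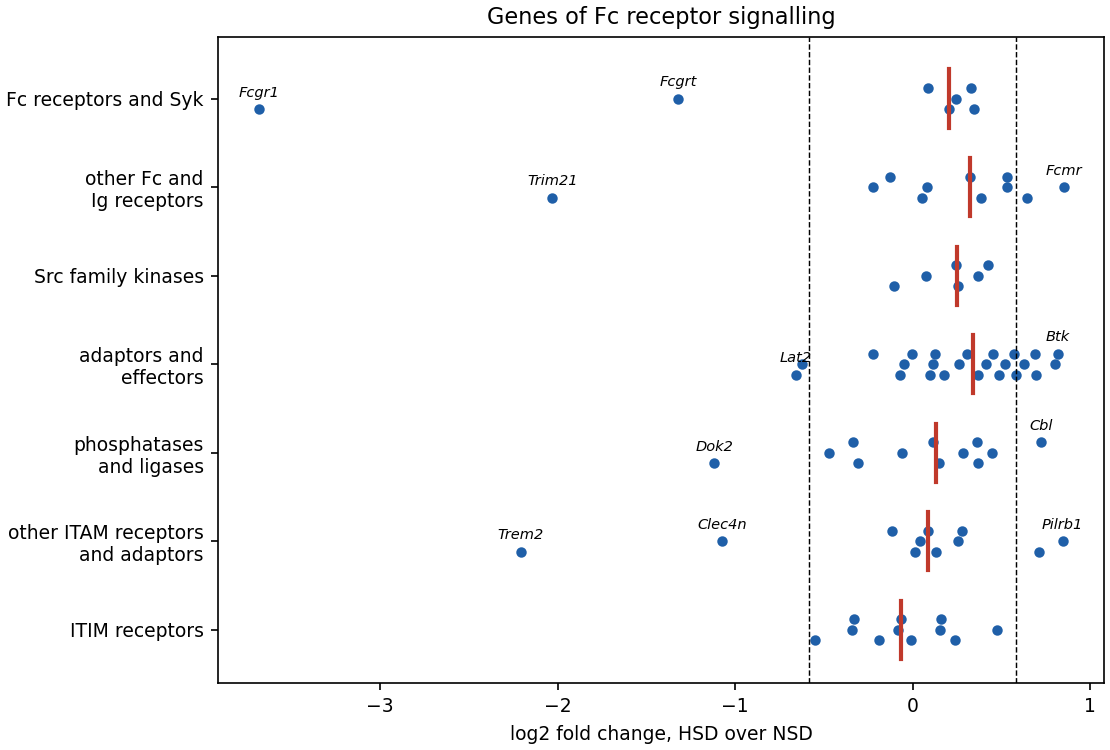
Log2 fold change (HSD over NSD) of each usable gene of the Fc receptor set and of 6 lists of genes around it, with a red bar for the median of each list and dashed lines at 1.5-fold. Fcgr1 at −3.68, Trem2 at −2.21 and Trim21 at −2.03 are the lowest points, and the medians of the lists lie between −0.06 and 0.34.

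Most marker genes of macrophages were lower in the HSD group, as was Fcgr1. Of 8 usable macrophage markers, 5 were at least 1.5-fold lower and none higher, beside 10.3% lower and 9.86% higher of all genes. Their median log2 fold change was −1.83, and the summed signal of the list was 19088 for NSD and 12582 for HSD. C1qa, 1 of the 5, was dim, and its bound of −1.36 became −0.07 after normexp, short of 1.5-fold. Mrc1, the mannose receptor gene, had 134 and 5.49 intensity units and the lowest log2 fold change of the list, −4.50, which was −1.56 with the normexp correction. Mertk, which encodes a receptor for the uptake of apoptotic cells, had a log2 fold change of −2.52, or −1.01 after normexp. Other markers were less changed, with log2 fold changes of −0.55 for Adgre1, a macrophage surface receptor, and −0.37 for Csf1r. Cd163 was on neither array well above background and no probe was matched to Cd68. Monocyte markers had a median of 0.02, with 2 of 7 higher and 1 lower, and a summed signal of 134950.0 and 141480.0. What part the macrophage marker genes had in the value of Fcgr1 was not tested.

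The other cell types whose genes could bring Fc receptors into the sample had list medians nearer to 0 than the macrophage markers. The 6 B cell markers, cells in which Fcgr2b is the main Fcγ receptor, all lay above 0 with a median of 0.47, none passed 1.5-fold, and their summed signal was 6505 for NSD and 7646 for HSD. Of 8 mast cell and basophil markers, a lineage that uses Fcer1g in the IgE receptor, 7 lay below 0 with a median of −0.20, and none passed 1.5-fold. The 9 neutrophil markers had a median of 0.08 and a range from −0.06 to 0.51. The highest value was that of Cxcr2, the dimmest of them, with 1643 intensity units for NSD and 2168 for HSD. For the brightest of these markers, the response of the probe to a change in RNA was not tested. Of 8 usable NK and T cell markers 1 was lower and none higher, with a median of −0.10. The 7 usable dendritic cell markers had 2 higher and 1 lower, and the 6 endothelial markers had none past 1.5-fold by their brightest probes. The probes of the endothelial marker Kdr disagreed. Its brightest probe, on 1 spot, had a log2 fold change of 0.28. A dimmer probe, printed in 10 spots, had 124 intensity units for NSD and 20.4 for HSD, a log2 fold change of −2.49. Of 6 carcinoma markers 3 were higher, in a list whose summed signal was 155 for NSD and 143 for HSD. Over all genes, 9.86% were at least 1.5-fold higher and 10.3% lower.

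**Figure D4:**
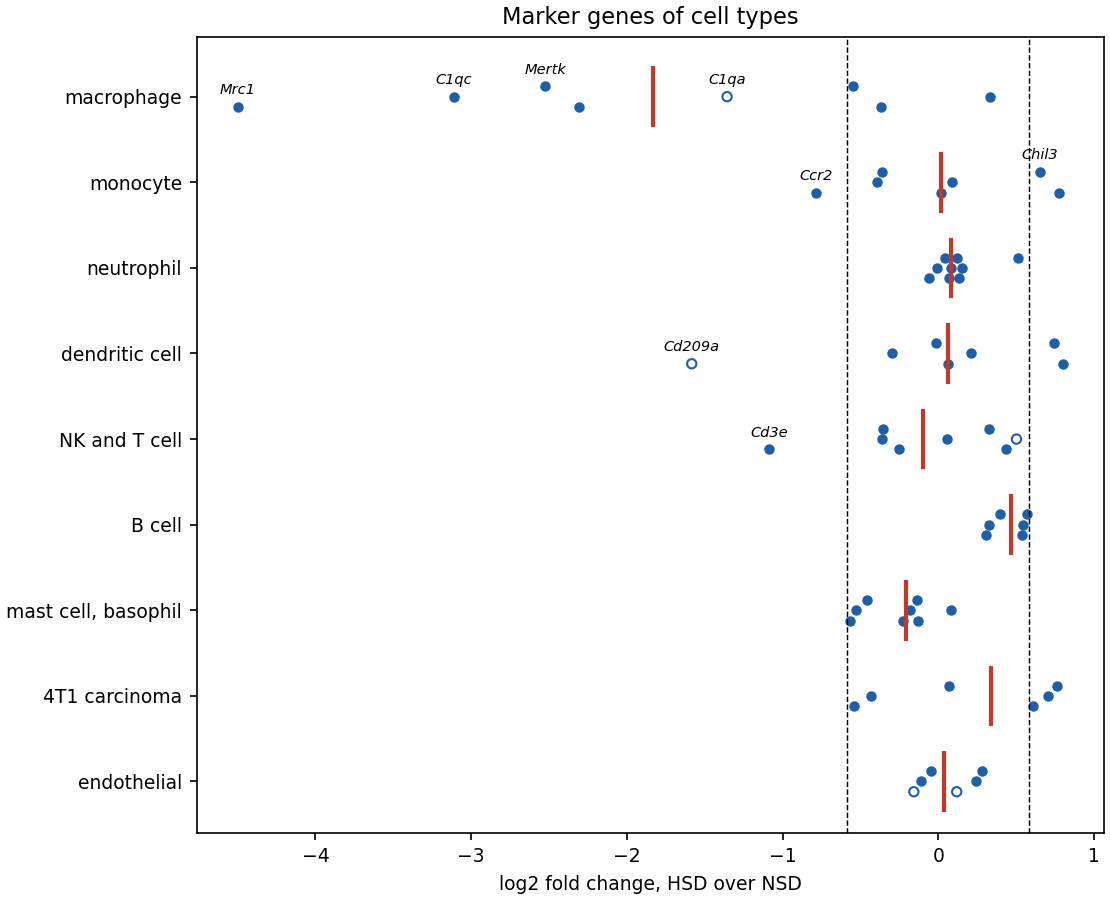
Log2 fold change (HSD over NSD) of each usable marker of 9 cell types, with open circles for values that are lower bounds because the probe was not well above background on 1 array, red bars for medians and dashed lines at 1.5-fold. The macrophage markers spread down to −4.50 with a median of −1.83, and the medians of the other lists lie between −0.20 and 0.47.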

How the data were processed

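Total RNA of pooled tumour M-MDSCs was measured on Agilent single-colour (Cy3) mouse arrays, 1 per diet, and both arrays shared a slide, which leaves no block to fit. The authors deposited scanner files, in which processed signals, their errors and the median signals of spots and local background are intensity values extracted with Agilent Feature Extraction 11.0.1.1, without scaling between arrays. The authors also deposited log2 values normalized with GeneSpring. The normalization method is not given in the sources used here, and these values served as an alternative. Samples were grouped by the diet in the labels.

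Control spots and spots flagged as outliers were left out, log2 signals were averaged over the spots of a probe, and the 75th percentile over 39413 probes was subtracted from each array. The error of a log2 fold change was propagated from the errors given by the software. A probe was usable when well above background on at least 1 array (at least 50% of its spots), which held for 28330 probes on the NSD and 28534 on the HSD array. Where it was dim on 1 array, the fold change was a bound, set against the lowest signal well above background or, if higher, the dim signal itself. Probes were named through RefSeq transcripts (GRCm38.p6), which named 27223 probes (69.1%), and the brightest probe stood for a gene. The annotation of the array design used an older assembly, so positions are given only for RefSeq promoter windows. Probe sequences were not used here, and cross-hybridization between the similar Fcγ receptor genes was not tested.

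All 7 genes were named whatever their values. Of each other list, the genes past 1.5-fold were named where there were 4 or fewer in a direction, otherwise the 4 with the largest change, plus Tyrobp, Lyn, Inpp5d, Ptpn6 and Plcg2. Some genes that this rule names are not reported here. The members, lists and marker genes were chosen with earlier results of these data known. With 1 array per diet, no test was made.

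The 11 alternatives were quantile, median, cyclic loess and detected-probe scaling, normexp background correction (offset 50, run on the median signal of spots because the mean signal was not used here), the deposited log2 values, both filters on dim probes, flagged spots kept, a 2-fold threshold, and the median of all probes per gene. Counting was checked with simulated data. Calculations used R 4.3.3 (limma 3.58.1) and Python 3.11.15 (pandas 2.3.3, numpy 2.4.6), and plots matplotlib 3.10.9.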

Additional observations from a re-analysis of the deposited data

How the results depend on the processing

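The log2 fold change of Fcgr1 lay between −3.72 and −3.68 under the scalings, filters, probe rule and deposited log2 values tried and was −2.10 with the normexp correction. That of Fcgrt lay between −1.36 and −1.29, and was −0.43 with the normexp correction, so the number of lower Fc receptor genes was 1 in place of 2. The numbers of higher (0) and lower (2) genes were otherwise the same under all alternatives. The median over the 7 genes lay between 0.10 (cyclic loess) and 0.23 (normexp). Of the genes of the 6 signalling lists, 10 were higher from 1.5-fold upward and 0 from 2-fold upward. Scaling moved the split over all genes, from 48.9% of the calls higher with the 75th percentile to 38.45% under cyclic loess. Without a filter on dim probes, with 20653 in place of 16312 genes examined, 56.75% of the calls were higher. No alternative moved the median of all genes by over 0.1. No paired analysis was possible because each diet has 1 array. Low signal limits Fcgr1 and Fcgrt in the HSD group and Plcg1 in both, where the spots lay close to background, and no alternative addresses the variation between mice.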

Other observations

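The genes of C1q, the complement protein that binds IgG in immune complexes, were dim and disagreed among themselves. C1qc had 52.6 intensity units for NSD and 5.61 for HSD, which gave a log2 fold change of −3.11 and after normexp of −0.74. C1qa was not well above background on the HSD array, where its bound gave a log2 fold change of −1.36, and −0.07 after normexp. C1qb went the other way, with 50.4 and 58.4 intensity units and a log2 fold change of 0.33. Each value comes from the brightest probe of the gene. On the NSD array that of C1qc was measured on 10 spots, and those of C1qa and C1qb on 1 spot each.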
